A study of Mus musculus with 8 samples.

Results

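The Kruppel-like factors examined here are 10 transcription factor genes, Klf2, Klf3, Klf4, Klf5, Klf6, Klf9, Klf10, Klf11, Klf13 and Klf15, taken by symbol from a counts table of 49315 genes. All 10 were among the 16180 genes that passed a filter on low counts and were tested. The table comes from RNA sequencing of hearts of C57BL/6 mice aged 8 weeks, with 4 female and 4 male libraries. No treatment, transgene or mutation is given for either group, and the labels do not say which part of the heart was taken or that each library is a separate animal, so p-values measure the spread between these libraries. The series set out to compare male and female adult hearts.

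Kruppel-like factors bind CACCC and GC-rich DNA through a run of zinc fingers at the end of the protein, and their other parts recruit activators or repressors. In the heart and its vessels they are known from different cells. Klf2 and Klf4 are induced in endothelium by blood flow, Klf15 acts in cardiomyocytes on fuel use and restrains hypertrophic growth, and Klf10 and Klf11 were first described as early genes of TGF-beta. Klf9 and Klf15 respond to glucocorticoids, and Klf9, Klf10 and Klf15 are also known outputs of the circadian clock.

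Promoter sequences from RefSeq (GRCm38.p6, 250 bases before to 50 after the gene's start) were found for 8 of the 10 members, all except Klf5 and Klf10. They are shown for the members that hold a site of the clock factors or of MEF2, because these are paths known to act on the family. Capitals mark the E-box CACGTG, a site bound by clock factors and by other factors too, in the first 4 lines and the MEF2 motif in the last. Each line runs 5′ to 3′ on the strand of the gene.
Klf15, chr6:90462326-90462585, plus strand: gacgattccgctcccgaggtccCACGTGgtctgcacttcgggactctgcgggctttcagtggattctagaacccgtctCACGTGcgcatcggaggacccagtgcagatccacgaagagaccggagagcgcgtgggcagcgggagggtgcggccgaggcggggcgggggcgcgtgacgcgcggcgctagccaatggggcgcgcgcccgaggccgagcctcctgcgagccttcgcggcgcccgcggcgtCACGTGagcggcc
Klf11, chr12:24651130-24651189, plus strand: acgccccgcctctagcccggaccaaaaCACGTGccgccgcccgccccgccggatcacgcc
Klf4, chr4:55532625-55532684, minus strand: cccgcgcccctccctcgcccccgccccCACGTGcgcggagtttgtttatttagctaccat
Klf6, chr13:5861419-5861478, plus strand: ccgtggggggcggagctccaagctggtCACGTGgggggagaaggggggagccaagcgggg
Klf2, chr8:72318919-72318978, plus strand: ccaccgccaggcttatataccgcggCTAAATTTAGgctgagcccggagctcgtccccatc

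The E-box was present in 4 of the 8 promoters, against 7.15% of all 32851 promoters in the table, which were not matched for base composition. Klf15 held 3 copies, at bases -228, -172 and -3 from the start, and 0.088% of all promoters held 3 or more. The MEF2 motif stood in Klf2 alone among the 8, from base -118 to -109, and in 0.557% of all promoters. The GC box GGGCGG, one of the sequences that these factors bind themselves, was in 7 of the 8, Klf9 lacking it, and in 35.7% of all promoters. The CACCC box was in 5 of the 8 and in 57.5% of all, and the CCAAT box in 5 of the 8 and in 37.4% of all. None of the 8 held the glucocorticoid receptor site AGAACA in its short form (19% of all promoters), the CRE TGACGTCA (1.79%) or the CArG box (1.63%), and the AP-1 motif TGANTCA (7.81%) was in Klf9 alone. Both strands were searched, CACCC and GC boxes can overlap, and these matches describe letters in the window, not bound sites.

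Total counts ran from 32746054 to 47097765, and every male library was deeper than every female one (p = 0.029 by an exact permutation test, two-sided, which can go no lower with these groups). The hearts carried the defining markers of the labelled tissue, with all 11 cardiomyocyte markers on the list among the genes tested and a summed level of 85800 to 95560 CPM, which are counts scaled to library size. Some libraries stood apart in markers of single regions or cell types. Atrial markers summed to 476.7 CPM in male replicate 4 and to 2375 to 2879 in the other libraries, macrophage markers to 842.3 CPM in male replicate 1 and 396.4 to 504.4 elsewhere, and lung markers to 21.2 CPM in female replicate 3 and 0.537 to 3.98 elsewhere. Called means an adjusted p below 0.05 for males against females in edgeR's quasi-likelihood test, with Benjamini-Hochberg adjustment over all 16180 genes. White adipocyte markers were called higher in females for 9 of 12 genes, with sums of 718.1 to 924.9 CPM in females and 572 to 682.6 in males. Fibroblast markers were called higher in females for 3 of 11 genes, and their sums of 3544 to 3757 CPM in females lay above the 2991 to 3384 in males. Brown adipocyte markers had 3 of 8 genes called higher in females and 1 higher in males. Skeletal muscle markers had none of 5 called by edgeR, with 3 unadjusted p below 0.05 and 1 call in DESeq2. Their sums of 2620 to 2925 CPM in females lay below the 3025 to 3218 in males. Nearly all of each sum came from the creatine kinase gene Ckm, with 2615 to 2919 CPM in females and 3018 to 3212 in males (adjusted p = 0.063). The difference in sums is thus that of Ckm and does not describe the list as a whole. The part of these shifts in the results on Kruppel-like factors was not tested. The Kruppel-like factors are therefore also given without female replicate 3, male replicate 1 and male replicate 4. Bulk RNA cannot tell fewer cells of a type from less RNA per cell.

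Per kilobase of exon, Klf9 and Klf2 were the most abundant of the 10 and Klf5 was close to absent. Over the 8 libraries, Klf9 stood at 39.2 ± 2.68 CPM per kilobase (SD, n = 8) and Klf2 at 38.0 ± 4.91. Their ranges overlapped, and their order varied over the libraries: Klf2 was the higher in all 4 female libraries and Klf9 in 3 of the 4 male ones. Klf15 (24.6 ± 4.33 CPM per kilobase) came below both in all 8 libraries, followed by Klf4 (17.3 ± 1.85), Klf6 (12.2 ± 0.697) and Klf13 (9.24 ± 0.962), each below its predecessor in all 8 libraries. The ranges of Klf15 and Klf4 over the libraries overlapped, although Klf15 was the higher within each of the 8. Klf10 (5.03 ± 1.202 CPM per kilobase), Klf3 (3.36 ± 0.397) and Klf11 (3.19 ± 0.370) formed the low end, with Klf3 above Klf11 in 6 of 8 libraries and their ranges overlapping. Klf9, Klf2 and Klf15 together led the family, with mean shares of 25.8%, 25.0% and 16.1% of its summed CPM per kilobase. Without the division by length, Klf13 moved from the sixth to the third place, its exons being 7531 bases long in sum.

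**Figure D1:**
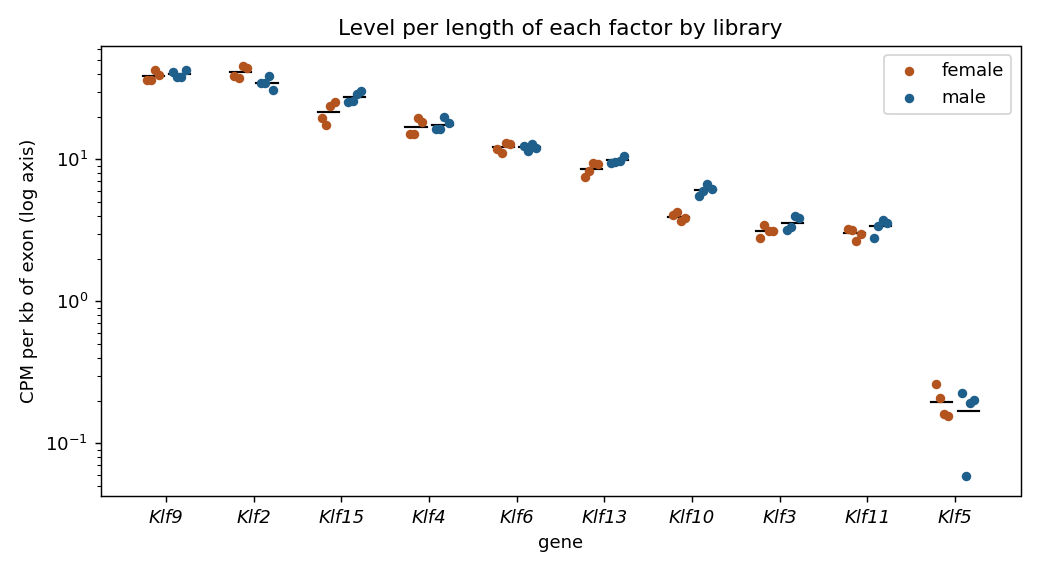
CPM per kilobase of summed exon length on a log axis for the 10 genes, ordered by their mean, with 1 point per library (4 female, 4 male) and a bar at the mean of each sex. Klf9 and Klf2 share the top near 39.2 and 38.0, and Klf5 lies at 0.183 on average.

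Between the sexes, Klf10 rose in males, while the other 9 members missed the threshold of the test. Fold changes are log2 differences, male minus female, from the edgeR fit. By its threshold 3.79% of all genes were called, 2.03% higher in males and 1.76% higher in females, and 1 of the 10 Kruppel-like factors was called, higher in males. Before adjustment, 5 of the 10 had p below 0.05, namely Klf2, Klf3, Klf10, Klf13 and Klf15, as did 19.5% of all genes. DESeq2 called 2 of the 10, Klf10 and Klf2, and 6.1% of all genes, and limma-voom called Klf10 alone and 3.8% of all genes. The median log2 fold change of the 10 was 0.11, with 8 positive and 2 negative, and that of all genes tested was -0.00074. In 2 of the 10, Klf10 and Klf13, the values of the sexes did not overlap, as in 12% of all genes tested. Without the 3 libraries that stood apart, the members other than Klf2, Klf10 and Klf15 had log2 fold changes from -0.71 (Klf5) to 0.23 (Klf3), with adjusted p from 0.26 to 0.89.

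**Figure D2:**
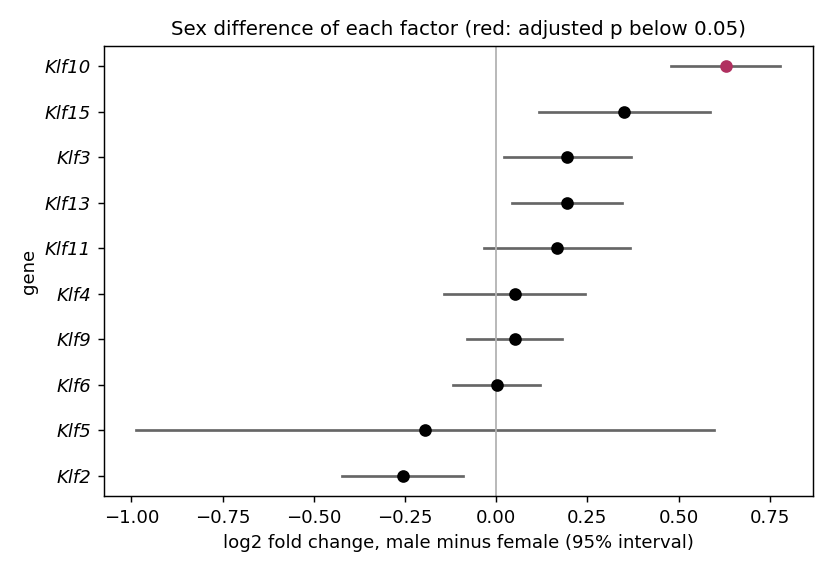
Log2 fold change, male minus female, of each of the 10 genes with its 95% interval from the edgeR fit. The called gene Klf10 lies at 0.63, with an interval from 0.48 to 0.78, and Klf5 has the widest interval, from -0.99 to 0.60.

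Klf10 (chromosome 15, 38294413 to 38300707, minus strand, GRCm38) encodes a repressor that binds the Sin3 corepressor and is induced by TGF-beta. Female replicates 1 to 4 gave 12.3, 12.9, 11.1 and 11.8 CPM, and male replicates 1 to 4 gave 16.9, 18.4, 20.3 and 18.8. The highest female value lay well below the lowest male one. The female mean was 12.02 ± 0.756 CPM and the male mean 18.6 ± 1.39 (SD, n = 4 each), a 1.55-fold difference (log2 fold change 0.63, SE 0.069, adjusted p = 0.00072). These values rest on 394 to 865 counts per library. The call held in all 19 alternatives run, among them each of the 8 that omitted a library, with log2 fold changes from 0.59 to 0.67 and a highest adjusted p of 0.012. Without the 3 libraries that stood apart it was 0.65 (adjusted p = 0.0055).

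Klf11, the closest relative of Klf10 and likewise a Sin3-binding repressor, gave 13.7, 13.4, 11.3 and 12.5 CPM in the female libraries and 11.9, 14.3, 15.9 and 14.97 in the male ones. The groups overlapped, since male replicate 1 fell among the female values. The log2 fold change was 0.17 (95% interval -0.033 to 0.37, adjusted p = 0.35). Klf10 and Klf11 had nearly the same CPM in females, with a Klf10 to Klf11 ratio of 0.898 to 0.990, and in males the ratio was 1.26 to 1.42. The groups did not overlap in this ratio (log2 difference 0.47, p = 0.029 by an exact permutation test, two-sided, the smallest possible). This was computed for all 45 pairs of members after their values were seen. Adjusted over the 45 the p was 0.087, as for every pair without overlap.

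The TGF-beta path gave Klf10 and Klf11 their older names. Of 17 tested genes of this path, 0 were called higher in males and 1 higher in females. Their median log2 fold change was -0.008. An unadjusted p below 0.05 was found for 6 of them and for 19.5% of all genes, and DESeq2 called 3 of them. The gene called by edgeR was Smad3, which encodes a signal carrier of the path (female mean 28.6 ± 1.13 CPM, male mean 24.7 ± 0.841, log2 fold change -0.21, adjusted p = 0.026). Of the corepressors, coactivators and ubiquitin ligases known to bind Kruppel-like factors, 13 were tested. The ubiquitin ligase gene Wwp1, whose protein targets Klf2 and Klf5, was called higher in males (log2 fold change 0.18, adjusted p = 0.042). Fbxw7, the substrate-binding part of another ubiquitin ligase, was called higher in females (-0.23, adjusted p = 0.017), and the other 11, Sin3a and Sin3b included, were not called.

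Klf15, the regulator of amino acid and lipid use in heart muscle (chromosome 6, 90462576 to 90475238), varied more between female libraries than any other member outside the scarce Klf5, with an SD of 0.257 in log2 CPM. The female libraries gave 54.6, 48.5, 66.6 and 71.4 CPM and the male ones 70.5, 71.8, 80.5 and 84.5. Female replicate 4 reached into the male range, and female replicates 1 and 2 were well below it. The female mean was 60.3 ± 10.6 CPM and the male mean 76.8 ± 6.78 (SD, n = 4 each, log2 fold change 0.35, 95% interval 0.12 to 0.59), and the adjusted p of 0.096 missed the threshold. Its log2 fold change was 0.26 to 0.44 over the 19 alternatives, and its call changed with the processing. The adjusted p was 0.048 without female replicate 4, 0.0079 with no filter on low counts and 0.017 with the replicate number as a block, against 0.14 in DESeq2 and 0.087 in limma-voom. Without the 3 libraries that stood apart the log2 fold change was 0.39 (adjusted p = 0.22).

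Of 19 genes known to follow Klf15 in muscle, heart or liver, 3 were called higher in males and 0 higher in females. Their median log2 fold change was 0.11, 7 had an unadjusted p below 0.05 and DESeq2 called 6. Bckdha, a subunit of the enzyme that commits branched-chain amino acids to breakdown, averaged 114 ± 5.96 CPM in female and 139 ± 9.54 in male libraries (log2 fold change 0.28, adjusted p = 0.016). Gpt2, a mitochondrial alanine aminotransferase gene, averaged 45.3 ± 1.40 and 54.3 ± 5.61 CPM (0.26, adjusted p = 0.046). Of 10 hypertrophy and fetal genes that Klf15 is known to hold down, 2 were called higher in males, the stretch-responsive Ankrd1 (0.55, adjusted p = 0.0074) and the skeletal actin gene Acta1 (0.69, adjusted p = 0.028), and none higher in females, while the list's median log2 fold change was -0.073. The atrial-poor male replicate 4 had the lowest sum of that list, 2094 CPM against 2869 to 3612 in the other libraries.

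Klf9 and Klf13 belong with Klf10 and Klf11 to the Sin3-binding group. Klf13, a partner of the cardiac factor GATA4 in heart development, gave 56.4, 62.0, 70.9 and 70.3 CPM in the female libraries and 71.6, 72.3, 73.2 and 80.1 in the male ones. All 4 male values exceeded all female ones, by a small margin, and the test did not call the difference (log2 fold change 0.19, 95% interval 0.044 to 0.35, adjusted p = 0.15). Klf9, the most abundant member in CPM and a direct glucocorticoid target, gave 117.8, 117.8, 140 and 127.4 CPM in the female libraries and 134.7, 123.9, 124.1 and 138.3 in the male ones. Its groups overlapped fully (log2 fold change 0.051, 95% interval -0.080 to 0.18, adjusted p = 0.70).

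Other glucocorticoid targets and clock genes were read beside Klf9, Klf10 and Klf15. Of 19 glucocorticoid target genes, 4 were called higher in males and 1 higher in females, with a median log2 fold change of 0.072. Of all genes, 2.03% were called higher in males and 1.76% higher in females. An unadjusted p below 0.05 was found for 12 of these 19 and for 19.5% of all genes. DESeq2 called 9 of the 19 and 6.1% of all genes. Fkbp5, a co-chaperone of steroid receptors, gave 14.0, 12.1, 21.4 and 20.3 CPM in the female libraries and 58.5, 45.1, 60.5 and 71.4 in the male ones, while Dusp1, a MAP kinase phosphatase gene, was called higher in females (-0.44, adjusted p = 0.00095). The glucocorticoid receptor gene Nr3c1 was called higher in females (-0.18, adjusted p = 0.035). Of 19 core clock genes, 3 were called higher in males and 1 higher in females, 11 had an unadjusted p below 0.05 and DESeq2 called 6. Nr1d1, a repressor arm of the clock, averaged 77.4 ± 13.0 CPM in female and 113 ± 6.77 in male libraries (0.54, adjusted p = 0.012), and Npas2, a partner of BMAL1, was higher in females (-0.38, adjusted p = 0.027). The labels give no hour of dissection, and the part of the clock and of steroids in the Klf10 difference was not tested.

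Klf2 was the well-expressed member with a negative fold change. This endothelial factor, which raises nitric oxide synthase and thrombomodulin under flow, gave 71.9, 68.9, 83.6 and 81.5 CPM in the female libraries and 63.3, 63.9, 72.0 and 56.95 in the male ones. Male replicate 3 lay above the 2 lowest female libraries, and the other 3 males lay below all females. The means were 76.5 ± 7.16 and 64.0 ± 6.16 CPM (SD, n = 4 each, log2 fold change -0.26, 95% interval -0.42 to -0.090, adjusted p = 0.090), so the difference missed the threshold. DESeq2 called it (adjusted p = 0.020), as did edgeR with no filter on low counts (0.017). None of the 8 fits that omitted a library did, but these used the filtered edgeR fit, which did not call it with all libraries either. DESeq2 and the unfiltered fit were not run with a library left out. Without the 3 libraries that stood apart the log2 fold change was -0.12 (adjusted p = 0.51).

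Klf4, which shares the flow response of Klf2 and also acts in smooth muscle, gave 46.4, 46.0, 59.4 and 55.6 CPM in the female libraries and 49.8, 49.7, 60.6 and 54.7 in the male ones. The groups overlapped (log2 fold change 0.051, 95% interval -0.14 to 0.25, adjusted p = 0.80), and the sign turned without female replicate 2 or male replicate 3. Klf6, a factor induced by tissue injury, gave 49.7, 46.9, 54.9 and 53.8 CPM in the female libraries and 52.7, 48.3, 54.0 and 50.5 in the male ones (log2 fold change 0.0017, 95% interval -0.12 to 0.12). The sign of this small value changed with the scaling, the filter and the libraries used, and the means were 51.3 CPM in females and 51.4 in males. The Klf2 to Klf4 ratio was 1.41 to 1.55 in females and 1.04 to 1.29 in males, without overlap (log2 difference -0.31). By the same exact permutation test p was 0.029, and 0.087 adjusted over the 45 pairs, above the threshold. Every ratio without overlap had this smallest possible p and hence the same adjusted p, which therefore says nothing particular to this ratio. Of those 45 ratios, 15 (33.3%) did not overlap between the sexes. The 45 ratios reuse the same 10 genes, and the share over ratios of other genes was not computed.

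**Figure D3:**
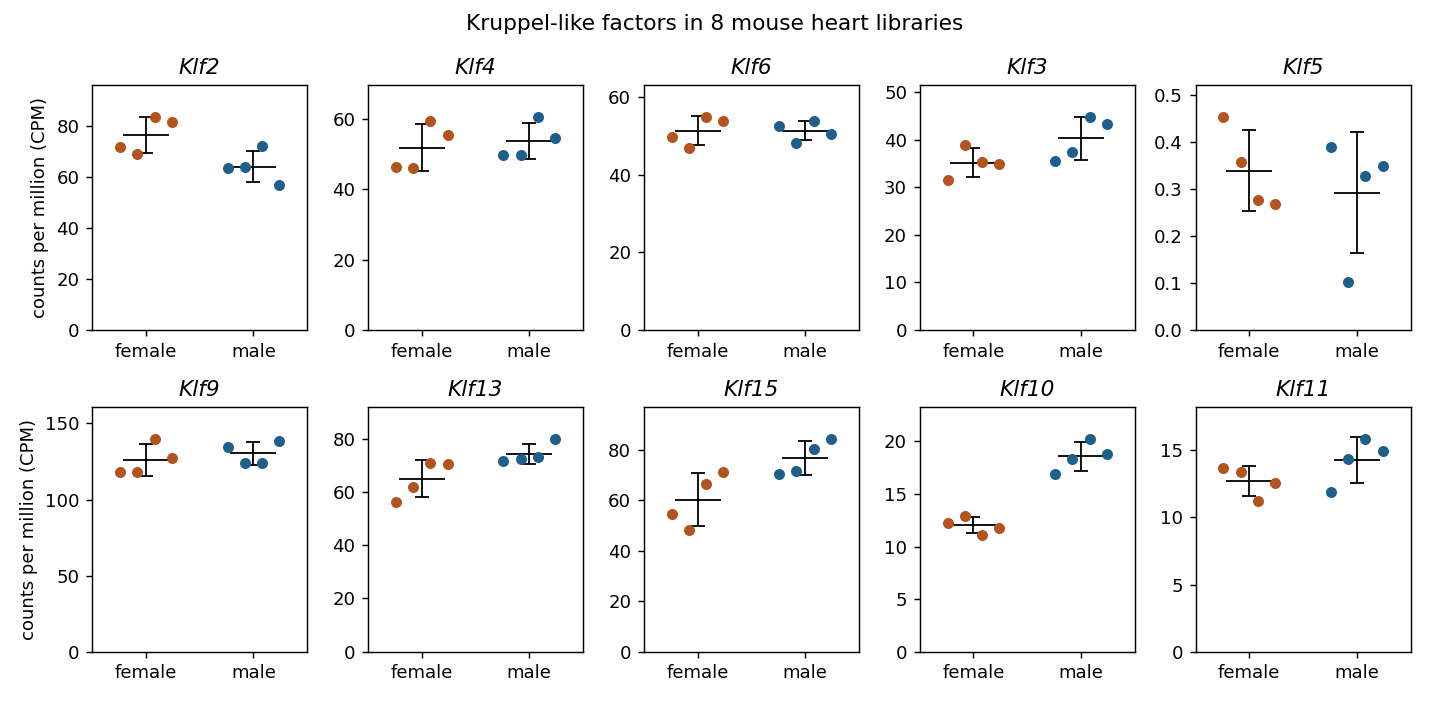
CPM of the 10 genes in the 4 female and 4 male libraries (replicates 1 to 4 from left to right), each panel from 0, with the mean as a bar and the SD as whiskers. Klf10 is separated by sex, at 11.1 to 12.9 in females and 16.9 to 20.3 in males, and Klf13 only narrowly.

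Endothelial markers were read beside Klf2 and Klf4. Of 12 tested markers 1 was called, Tie1, higher in males (log2 fold change 0.20, adjusted p = 0.045), 5 had an unadjusted p below 0.05 and DESeq2 called 4. None was at 0, and their sum was 1204 to 1339 CPM in females and 1241 to 1373 in males. None of 11 genes of flow sensing and the MEK5-ERK5-MEF2 path was called by edgeR, 3 had an unadjusted p below 0.05, and DESeq2 called 1. The smallest p among them belonged to the VEGF receptor gene Kdr (female mean 190 ± 20.7 CPM, male mean 158 ± 8.32, log2 fold change -0.26, adjusted p = 0.062). Kdr was also 1 of the 12 endothelial markers, where it ran opposite to Tie1. Its values did not overlap between the sexes, as in 12% of all genes tested. The median log2 fold change of the 12 markers was 0.045. Of 13 endothelial genes known to follow Klf2 and Klf4, the water channel gene Aqp1 was called higher in males (0.35, adjusted p = 0.031), the taurine transporter gene Slc6a6 higher in females (-0.36, adjusted p = 0.039) and the other 11, Nos3 and Thbd included, were not called. Of these 13 genes, 7 had an unadjusted p below 0.05 and DESeq2 called 2. Klf2, Klf4, Klf6 and Klf10 are also known to rise quickly when tissue is handled. Of 20 immediate early genes, 2 were called higher in females, Dusp1 and Fosl2 (-0.45, adjusted p = 0.0077), and none higher in males.

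Klf3, a repressor that works through CtBP, gave 31.5, 38.9, 35.4 and 34.9 CPM in the female libraries and 35.6, 37.4, 44.8 and 43.3 in the male ones. Male replicates 3 and 4 lay above all females and the other males within their range (log2 fold change 0.20, 95% interval 0.020 to 0.37, adjusted p = 0.21). Its exons share 404 bases with the antisense gene Gm20033, which had 437 counts in all, against 1043 to 1986 per library for Klf3. Without a stated strand setting the reads of that stretch cannot be told apart.

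Klf5, a factor of smooth muscle and adipocyte differentiation, had 15, 13, 10 and 9 counts in females and 16, 4, 14 and 16 in males. The interval of its log2 fold change ran from -0.99 to 0.60, so its difference between the sexes was poorly determined at these counts. None of 12 adipogenic transcription factors was called by edgeR, 3 had an unadjusted p below 0.05 and DESeq2 called 2. The smallest p was that of the lipogenic factor gene Srebf1 (log2 fold change -0.31, adjusted p = 0.054), beside the white adipocyte markers that were higher in females.

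Beyond the 10 members, 4 of 7 other Kruppel-like factors were tested and none was called by edgeR or DESeq2, with 1 unadjusted p below 0.05, that of Klf7. Klf7 averaged 18.9 CPM in female and 17.0 in male libraries (log2 fold change -0.15, adjusted p = 0.19), Klf16 at 6.12 and 6.22, Klf12 at 5.43 and 5.68, and Klf8 at 0.327 and 0.352. Klf1, the red cell factor, had 25 counts over the female libraries and 27 over the male ones, Klf14 had 27 and 21, and Klf17 had none in either sex. Of the related SP factors, the widely expressed Sp1, Sp2, Sp3 and Sp4 were tested and none was called by either tool, with 1 unadjusted p below 0.05, that of Sp2, and log2 fold changes from -0.18 to -0.08. Sp5 to Sp9 had at most 8 counts over a sex.

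The members were also compared by how they varied among libraries of the same sex. Each value was set against the mean of its sex on the log2 CPM scale, and Pearson's r is given as a description over the 8 libraries, which share library preparation, depth and scaling, and over the 4 of each sex. Klf10 and Klf11 followed each other (r = 0.94), in females (0.90) and in males (0.96). Klf4 went with Klf15 (0.85, with 0.90 in females and 0.76 in males) and Klf13 with Klf15 (0.80, with 0.79 and 0.85). Other pairs were close in the female libraries and less so in the male ones. Klf2 had r = 0.79 with Klf6 and 0.76 with Klf4 over the 8 libraries, at 0.99 and 0.98 in females and 0.54 and 0.48 in males. Klf6 with Klf15 had 0.96 in females and 0.20 in males.

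Several pairs turned sign between the sexes. Klf2 with Klf9 had r = 0.91 in females and -0.80 in males, and Klf4 with Klf10 had -0.93 in females and 0.89 in males. Klf9 ran against Klf10 in both, at -0.93 and -0.48. These values rest on 4 libraries each, and their difference was not tested. In females, 6 members, Klf2, Klf4, Klf6, Klf9, Klf13 and Klf15, were lower in replicates 1 and 2 than in replicates 3 and 4, a split seen in 15.9% of all genes tested and chosen after the values were seen.

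**Figure D4:**
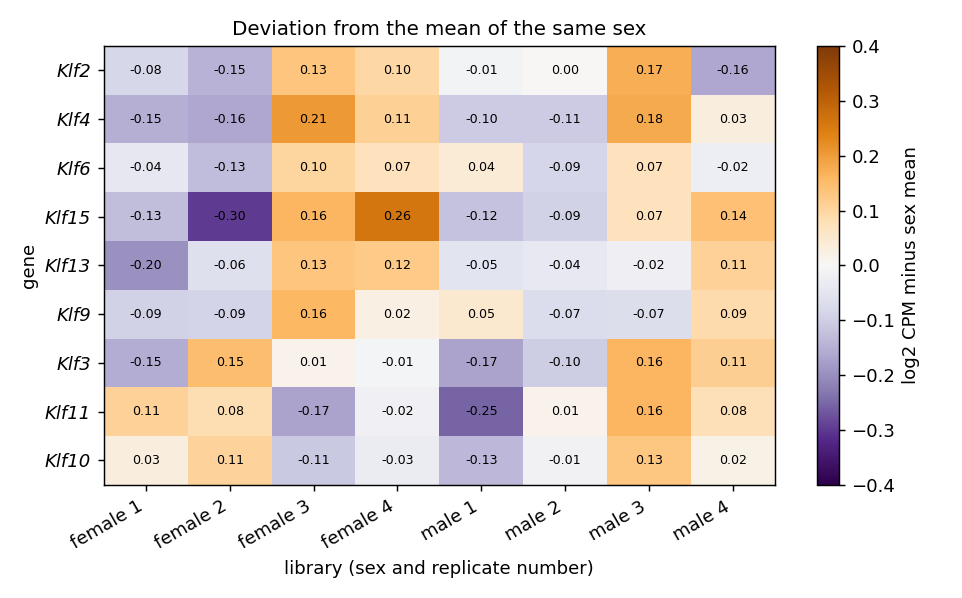
Log2 CPM minus the mean of the same sex for 9 members (Klf5, with 4 to 16 counts, left out) in the 8 libraries, colour and number giving the same value. Klf15 spans -0.30 in female replicate 2 to 0.26 in female replicate 4, and the rows of Klf10 and Klf11 rise and fall together.

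Of 9242 genes whose mean log2 CPM was 3 or more, those with the pattern most like Klf10 within the sexes were Sept4 (r = 0.99), Zfpm2 (0.99), Txnip (0.98), Rpn2 (0.94) and Crebl2 (0.94), over 8 libraries, and Klf11 ranked 10th. Of these 5, Txnip, whose protein binds thioredoxin and limits glucose uptake, was called as Klf10 was. The female libraries gave 396.7, 412.6, 329.3 and 356.3 CPM and the male ones 597.2, 713.6, 812.8 and 694.3 (log2 fold change 0.91, with SE 0.091 and adjusted p = 0.00033). Its highest and lowest libraries within each sex were those of Klf10, with female replicate 2 and male replicate 3 highest and female replicate 3 and male replicate 1 lowest. Txnip was picked by its r with Klf10 within the sexes, so this shared order follows from the choice and adds nothing to it. How high the top r of 9242 genes over 8 libraries would be without any relation was not tested. Sept4, Zfpm2, Rpn2 and Crebl2 had log2 fold changes between -0.08 and 0.10 and were not called.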

How the data were processed

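Heart RNA was made into 4 female and 4 male libraries with the Illumina TruSeq RNA kit, per the labels' protocols. The authors deposited raw counts, and the submitters' processing notes name the build GRCm38 (mm10), the counter featureCounts (Subread 1.5.2), the aligner STAR 2.5.2b and Trimmomatic 0.36. The annotation release, strand setting and handling of multi-mapped reads are not given in the sources used here. The single-sample tables held the same counts (100%) plus exon lengths in bases, another measure per the file headers. The authors deposited normalized values too, a signal, and the counts were divided by them gene by gene. The median of this ratio in each library ran from 0.863 to 1.2. Whether the ratio was the same for all genes of a library was not checked.

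Genes were filtered with filterByExpr (minimum count 10, total 15), scaled by TMM and tested, male minus female, with edgeR 4.0.16 (R 4.3.3). SE is the absolute log2 fold change over the square root of F. Intervals use its moderated degrees of freedom at 95%. One count was worth 0.0212 to 0.0305 CPM, and log2 CPM used a prior count of 2. Promoter motifs were matched exactly. On simulated data for male minus female, with 16180 genes, 54%, 90%, 98% and 100% of 50 genes each changed by 1.25, 1.5, 2 and 4-fold were recovered, with 10 false calls among 181.

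The members and gene lists were chosen with earlier results of these data known. All members are named. From each list used the text takes at most 2 called genes per direction, by lowest p, and a single gene, again by lowest p, if the list has no call. Likeness to the member with the smallest p was ranked by r, and 5 genes named. Alternatives were DESeq2 1.42.0, limma-voom (limma 3.58.1), other scalings and filters, a replicate block, thinning, removal of mitochondrial genes, limma on log2 of the normalized values plus 1, and libraries left out.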

Additional observations from a re-analysis of the deposited data

Results flagged for a closer look

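Among 40 groups of 4 libraries checked, those of the 10 members and of 10 marker lists in each sex, 4 held a library far from the other 3, where chance flags about 1 in 20. No group of a Kruppel-like factor was among them. Macrophage markers summed to 842.3 CPM in male replicate 1 and 468.5 to 504.4 in the other males. Fibroblast markers summed to 3757 CPM in female replicate 3 (3544 to 3571 in the other females) and to 2991 in male replicate 4 (3349 to 3384 in the other males). Lung markers summed to 21.17 CPM in female replicate 3 and 0.5372 to 3.977 in the other females.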

How the results depend on the processing

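Klf10 was called in all 19 alternatives and no other member in more than 3. The count of members higher in males was 2 in place of 1 with no filter on low counts and with the replicate block, and 1 to 2 with a library left out, the added gene being Klf15 each time. The count higher in females was 1 in place of 0 with no filter and in the DESeq2 Wald test, that gene being Klf2, and 0 to 0 with a library left out. Of all genes, 613 were called, against 959 in DESeq2, 172 by limma on the authors' normalized values, 205 without the 3 libraries that stood apart (chosen after seeing the data) and 315 to 490 with a library left out. Leaving out male replicate 3 gave 315, female replicate 2 gave 354 and female replicate 3 gave 379. The cause of these shifts was not tested, and fewer libraries entered the fits without some.

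Signs turned only near 0. Klf4 fell to -0.0043 without female replicate 2 and -0.012 without male replicate 3, in a range up to 0.12 over the 8 fits that omit a library. Klf6 was -0.0041 with upper quartile scaling, -0.0014 with a filter of 1 CPM in 4 libraries, -0.0053 after thinning, and -0.013, -0.042, -0.011 and -0.022 without female replicates 1 and 2 and male replicates 1 and 3, in a range up to 0.035. Klf5 was 0.072 without male replicate 2, in a range down to -0.35, and could not be fitted with the 1 CPM filter, which removes it.

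Same-numbered libraries deviated together with r from -0.18 to 0.12 over 9252 genes, and 2 of 8 correlated best with their own number, so the numbers were not taken as pairs. With the replicate block 427 genes were called.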
